A study of Mus musculus with 5 samples.

Results

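The genes described here are 10 genes of the Hippo pathway: *Tead1*, *Tead2*, *Tead3* and *Tead4*, which encode the DNA-binding partners of the pathway; *Yap1* and *Wwtr1* (which encodes TAZ), the coactivators; and *Ctgf*, *Cyr61*, *Amotl2* and *Lats2*, known target genes. A ChIP-seq peak was given to one of them when its centre lay in the gene or within 10 kb of it, or when the nearest transcription start of a protein-coding gene was that of the gene. By this rule the 10 genes held 45 peaks of the SOX11 list (21270 peaks in all) and 8 peaks of the SOX4 list (2669 in all), and no peak belonged to more than 1 of them. The cells were primary mouse keratinocytes of genotype *Krt14-Cre;Sox11fl/fl;Sox4fl/fl*, from newborns, on a background that the labels give as mixed 129SvEx:C57BL/6 and to which the *Krt14-Cre* mice (FVB/N, per the study's methods) also contributed, in which Cre under the keratin-14 promoter deletes both *Sox* genes (dcKO). The floxed mice used for the first cross also carried *Sox12*-/- in the study's methods, and the labels name no *Sox12* allele for these cells. The cells carried a lentivirus with FLAG-tagged *Sox11* or *Sox4*, induced with doxycycline for a day before fixation. The lists thus come from ChIP of the tagged and induced protein, in cells without their own SOX11 and SOX4. SOX11-FLAG and SOX4-FLAG had 2 replicates each, which the authors combined into 1 list per factor, and 1 control library had no list. A list gives the coordinates of each peak (258 bp for every SOX11 peak and 340 bp for every SOX4 peak at these genes) with no height, so depth is unknown, no spread between replicates can be given, and every value below is a description without a test. Nothing in the lists measures expression, so the labelled cell type could not be checked against its markers.

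In the Hippo pathway a cascade of kinases, ending with LATS1 and LATS2, phosphorylates YAP and TAZ and holds them in the cytoplasm. When the cascade is low, YAP and TAZ enter the nucleus and bind TEAD proteins, which bring them to DNA. In skin this output is known for its part in the growth of basal keratinocytes and in wound repair. SOX11 and SOX4 are related HMG-box proteins of the SOXC group, and *Tead2* is a known SOXC target.

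The sequences that the results below turn on were read 5′ to 3′ from the + strand of mm9. Capitals mark exact matches in the SOX11 peak, on either strand, to AACAAAG or AACAATG (called the SOX motif, seen on the other strand as CTTTGTT or CATTGTT), to TGAGTCA or TGACTCA (the AP-1 motif, bound by FOS and JUN proteins) and to AGGAATG or TGGAATG (the TEAD motif, seen on the other strand as CATTCCT or CATTCCA). They are shown because the *Tead1* sequence is the earliest peak of these genes in the SOX11 list and lies under both factors, the *Cyr61* and *Amotl2* sequences are the SOX11 peaks under SOX4 peaks that have a TEAD motif, the *Ctgf* sequence holds 3 TEAD matches next to its transcription start, and the rest are SOX matches at the starts of the genes or, in *Yap1*, at the start of a noncoding transcript. Where a peak runs into a UTR or a noncoding exon, only the part outside it or 30 bases around a match are shown.
Tead1, intron 2 (chr7:119931857-119932114, mm9, + strand): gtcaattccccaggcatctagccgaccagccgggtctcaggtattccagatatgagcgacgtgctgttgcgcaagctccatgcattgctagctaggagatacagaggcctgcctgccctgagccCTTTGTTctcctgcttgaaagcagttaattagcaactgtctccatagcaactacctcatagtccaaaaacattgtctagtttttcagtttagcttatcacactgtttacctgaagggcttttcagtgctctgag
Tead2, inner start (chr7:52472038-52472067, mm9, + strand): atgcctgggctCTTTGTTctgtcctccaga
Tead2, outermost start (chr7:52471122-52471151, mm9, + strand): cacttttcccaAACAAAGctcccggcaact
Yap1, intron 3 (chr9:7965748-7965777, mm9, + strand): aggtgctctagAACAAAGtggtcctgcttc
Wwtr1, start (chr3:57379721-57379750, mm9, + strand): actgtcccataAACAAAGtttgaagcaaac
Ctgf, promoter (chr10:24315064-24315247, mm9, + strand): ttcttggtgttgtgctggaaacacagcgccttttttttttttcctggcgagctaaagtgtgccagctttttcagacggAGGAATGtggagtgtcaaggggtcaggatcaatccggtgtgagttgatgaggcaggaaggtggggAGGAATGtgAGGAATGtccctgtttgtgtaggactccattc
Cyr61, upstream (chr3:145337734-145337991, mm9, + strand): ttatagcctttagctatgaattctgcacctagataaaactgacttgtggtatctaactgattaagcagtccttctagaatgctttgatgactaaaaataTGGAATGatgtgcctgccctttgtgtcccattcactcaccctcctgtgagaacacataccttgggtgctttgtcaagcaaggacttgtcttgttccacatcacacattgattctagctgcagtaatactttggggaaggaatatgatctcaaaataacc
Amotl2, upstream (chr9:102575673-102575930, mm9, + strand): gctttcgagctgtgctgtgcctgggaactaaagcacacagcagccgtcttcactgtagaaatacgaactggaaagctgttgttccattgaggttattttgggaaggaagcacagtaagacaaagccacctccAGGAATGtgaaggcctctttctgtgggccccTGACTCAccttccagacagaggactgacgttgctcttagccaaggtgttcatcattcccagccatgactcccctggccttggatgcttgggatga
Lats2, inner start (chr14:58364931-58364960, mm9, + strand): gacattcgctaCATTGTTggCATTCCAcgg

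All 10 genes had a SOX11 peak, where 57.0% of the 22380 protein-coding genes did, and 5 of the 10 had a SOX4 peak, where 13.0% did. The genes were chosen with earlier results of these data known. In the study, binding at a known *Tead2* site was checked by ChIP-qPCR before the samples were sequenced. The *Tead2* peaks therefore add nothing independent to these counts. The 10 genes had a median of 4.0 SOX11 peaks, against 1.00 over all protein-coding genes and 2.00 over those with a peak. The 10 genes differ in length, from 3.02 kb for *Cyr61* to 227 kb for *Tead1*. Within the genes and their 10 kb flanks there were 30 SOX11 peaks in 0.873 Mb, or 3.44 per 100 kb, against 1.19 per 100 kb over all protein-coding genes taken the same way. The peaks stood near transcription starts and far from them alike: 10 of the 45 SOX11 peaks (22.2%, 95% Wilson interval 12.5 to 36.3%) lay in promoters, taken here as 1 kb before to 100 bp after a transcription start, beside 23.3% of the whole list. A further 18 lay in introns and 17 between genes. The intervals cover counting error over peaks, which are not replicates.

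**Figure D1:**
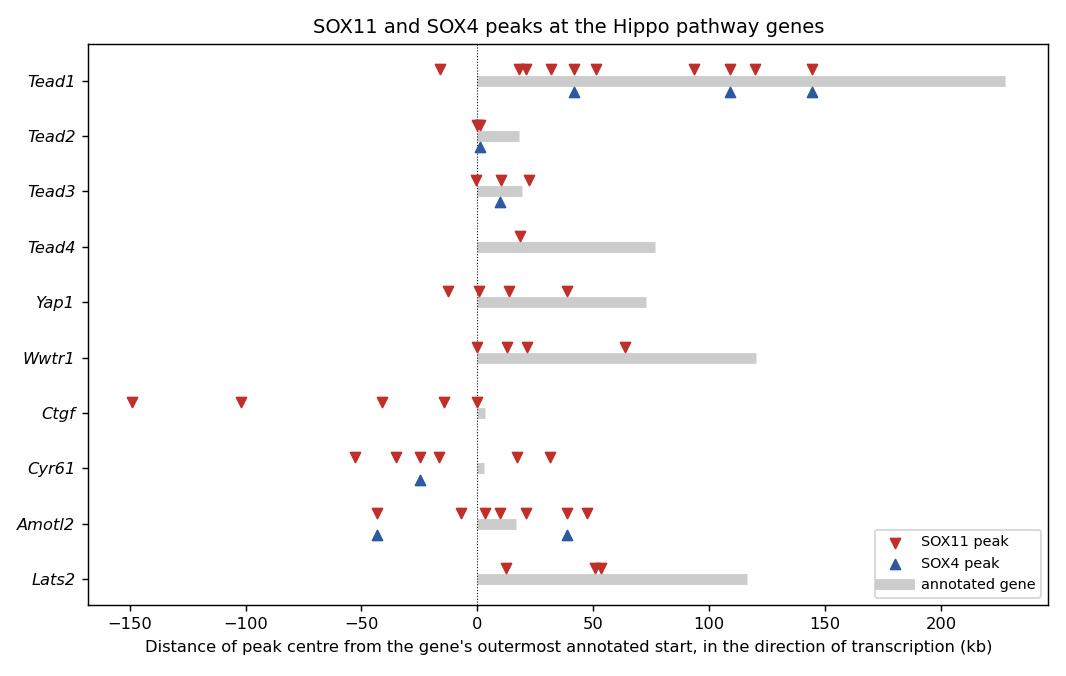
Distance in kb of each SOX11 peak (red) and SOX4 peak (blue) from the outermost annotated start of its gene, with the gene as a grey bar and the direction of transcription to the right. *Tead1* has most of its 10 SOX11 peaks inside the gene, while all peaks of *Cyr61* and *Ctgf* are centred outside the gene.

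The 4 *Tead* genes had 16 SOX11 peaks and 5 SOX4 peaks, of which 4 coincided. *Tead1*, on chromosome 7 from 119822832 to 120050319, had the most of all 10 genes, with 10 SOX11 and 3 SOX4 peaks. At least as many SOX11 peaks were found at 0.594% of protein-coding genes, and at least as many SOX4 peaks at 0.335%. *Tead1* is also the longest of the 10 genes, at 227 kb, and its density was 3.64 SOX11 peaks per 100 kb. Its 3 SOX4 peaks all lay in introns 1 and 2, and each covered a SOX11 peak of the gene in full. The SOX11 peak at chr7:119931857-119932114, in intron 2 and 109 kb from the start of the gene, stood at position 274 of the SOX11 list, and the SOX4 peak over it stood at position 266 of the SOX4 list. The CTTTGTT in its sequence is centred 1 bp from the centre of the SOX11 peak. The other shared *Tead1* peaks, at positions 983 and 2164 of the SOX11 list and 1107 and 694 of the SOX4 list, had no SOX match but 1 AP-1 match each, 117 and 99 bp from the centre. The 7 SOX11 peaks of *Tead1* without a SOX4 peak stood from position 4932 to 15055. In intron 1, the peak at position 4932 had an AP-1 match 94 bp from its centre, that at position 5199 a SOX match at 73 bp, that at position 15055 a TEAD match at 24 bp, and that at position 9783 none of the motifs. The peak at position 5328, in intron 2, had an AP-1 match 67 bp from its centre, and the peak at position 12527, which lay 15.9 kb upstream of the gene, had a TEAD match at 70 bp. The last of them, at position 14334 in intron 2, had a SOX match (CATTGTT) 2 bp from its centre and an AP-1 match (TGAGTCA), with 23 bases between the matches.

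*Tead2*, on chromosome 7 from 52471123 to 52489005, had peaks only at its transcription starts. The SOX11 peak at chr7:52471029-52471286 was centred 34 bp downstream of the outermost start and 4 bp from another annotated start. It stood at position 2613 of the list, with an AACAAAG 21 bp from its centre. The SOX11 peak at chr7:52471899-52472156 was centred 16 bp from an inner start, in the 5′ UTR, and stood at position 690. It had a CTTTGTT 25 bp from its centre and lay in full under the SOX4 peak at position 1535. The peak at the outermost start was not covered, though the same SOX4 peak began 578 bp away.

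*Tead3*, on chromosome 17 from 28468616 to 28487750, was the only one of the 10 genes with a SOX4 peak outside the SOX11 peaks. Its SOX4 peak at chr17:28478019-28478358, in intron 2, overlapped no SOX11 peak, as was the case for 147 of the 2669 SOX4 peaks in all. The nearest SOX11 peak, at position 8618 and also in intron 2, was 163 bp away. None of the 3 SOX11 peaks of *Tead3* had an exact match to any of the 3 motifs, and the SOX4 peak had 1 AP-1 match, 136 bp from its centre. The SOX11 peak at position 10019 was centred 552 bp upstream of the start of *Tead3*. The remaining one, at position 9140, was 14 bp from the start of *Rpl10a*, which encodes a ribosomal protein, and fell to *Tead3* only by lying within 10 kb of it. *Tead4*, on chromosome 6 from 128174306 to 128250841, had 1 SOX11 peak, at position 3840 in intron 1, with a TGGAATG 49 bp from its centre, and no SOX4 peak.

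The coactivator genes *Yap1* and *Wwtr1* had 4 SOX11 peaks each and no SOX4 peak. At least as many SOX11 peaks were found at 7.74% of protein-coding genes. *Yap1* lies on chromosome 9 from 7931999 to 8004596. No SOX4 peak came closer than 1221 kb to any of its SOX11 peaks. For *Wwtr1*, on chromosome 3 from 57259571 to 57379832, that gap was at least 894 kb. Of the 8 SOX11 peaks, 5 had a SOX match, 1 had an AP-1 match and 1 had a TEAD match. In *Yap1* the SOX11 peaks at positions 7140 and 16456, in introns 3 and 2, had their SOX matches 8 and 7 bp from the centre. The first of these lay 67 bp from the annotated start of a noncoding transcript and was counted as a promoter peak for that reason, and it also had a TGAGTCA 37 bases from the SOX match. The *Yap1* peak nearest the 5′ end of the gene, at position 8065 and 272 bp upstream of an inner start, had none of the 3 motifs. The remaining *Yap1* peak, at position 9653, lay 12.8 kb upstream of the gene, with an AACAATG 59 bp from its centre. In *Wwtr1* the SOX11 peak at chr3:57379713-57379970 was centred 9 bp upstream of the start and had a SOX match 106 bp to one side of its centre and a TEAD match 125 bp to the other side. A second *Wwtr1* peak with a SOX match, at position 19765 in intron 2, had it 5 bp from the centre. The *Wwtr1* peaks at positions 13082 and 16179, in the same intron, had no exact match. All 4 *Wwtr1* peaks stood between positions 13082 and 19765 of the list.

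The target genes *Ctgf*, *Cyr61*, *Amotl2* and *Lats2* had 21 SOX11 and 3 SOX4 peaks, and 15 of the SOX11 peaks lay between genes. *Amotl2* and *Lats2* are named as targets here and also act in the pathway, as a YAP-binding angiomotin and a kinase. *Ctgf* (connective tissue growth factor), on chromosome 10 from 24315248 to 24318489, is 3.24 kb long and had 5 SOX11 peaks and no SOX4 peak. At least as many SOX11 peaks were found at 4.62% of protein-coding genes. The promoter peak at chr10:24315064-24315321 was centred 56 bp upstream of the start and stood at position 15652. Its 3 TEAD matches, each AGGAATG on the + strand, lay 47, 18 and 27 bp from the centre, the last pair with 2 bases between them, and it had no SOX or AP-1 match. The other 4 peaks lay upstream of the gene, at 14.2, 41.1, 102 and 149 kb, and were given to it only by the nearest start. The farthest had 2 TEAD matches and a SOX match, the nearest had an AP-1 and a TEAD match, and those at 41.1 and 102 kb had 2 and 1 AP-1 matches. All 5 stood late in the list, between positions 12214 and 20191.

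*Cyr61*, a matricellular protein gene on chromosome 3 from 145309935 to 145312949, had 6 SOX11 peaks and 1 SOX4 peak, and none of them lay in the gene or within 10 kb of it. They were given to it because its start is the nearest of a protein-coding gene, at distances from 16.5 to 52.9 kb. The SOX11 peak at chr3:145337734-145337991, 24.9 kb upstream and at position 1805, lay in full under the SOX4 peak at position 1422. It had a TGGAATG 26 bp from its centre and no SOX match. Of the other 5 SOX11 peaks of *Cyr61*, the peak at position 5979 had an AP-1 and a TEAD match with 8 bases between them. The peak at position 16194 had a SOX and an AP-1 match with 7 bases between them and another AP-1 match. The peak at position 15386 had a TEAD match, and those at positions 8020 and 14864 had none.

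*Amotl2*, on chromosome 9 from 102619002 to 102635748, had 7 SOX11 peaks and 2 SOX4 peaks, numbers reached by 1.86% and 1.85% of protein-coding genes. With its 10 kb flanks it had the highest density of the 10 genes, 10.9 SOX11 peaks per 100 kb. The SOX4 peaks lay on SOX11 peaks outside the gene. Both of them, and 3 of the SOX11 peaks, were given to *Amotl2* only by the nearest start. The shared peak at chr9:102575673-102575930, 43.2 kb upstream of the outermost start, stood at position 2620 of the SOX11 list and 2300 of the SOX4 list, and its AGGAATG and TGACTCA had 24 bases between them. The other shared peak, at positions 7147 and 2106, lay 38.7 kb from the start, downstream of the gene, and had an AP-1 match 30 bp from its centre. The wider SOX4 peak there also had a TEAD match, 143 bp from its own centre and outside the SOX11 peak. The *Amotl2* peak that came first in the SOX11 list, at position 1244, was not covered by SOX4. It lay in intron 2, 222 bp upstream of an inner start, with a CTTTGTT 25 bp from its centre. The peaks at positions 3751 and 17512 had a TEAD match, the former with an AP-1 match too, and those at positions 5656 and 6817 had none of the 3 motifs.

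*Lats2*, on chromosome 14 from 58260914 to 58377225, had 3 SOX11 peaks, a number reached by 14.5% of protein-coding genes, and no SOX4 peak. The peak at chr14:58364875-58365132 was centred 43 bp upstream of an inner start and stood at position 15488. Its CATTGTT and CATTCCA had 2 bases between them, the closest pair of different motifs in the SOX11 peaks of the 10 genes. The peaks at positions 18089 and 19995, in introns, had no exact match.

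SOX4 overlapped 7 of the 45 SOX11 peaks (15.6%, interval 7.75 to 28.8%), beside 11.9% of the whole SOX11 list. Seen from the other list, 7 of the 8 SOX4 peaks overlapped a SOX11 peak, beside 94.5% of all SOX4 peaks. The 7 shared regions were 3 at *Tead1*, 1 at *Tead2*, 1 at *Cyr61* and 2 at *Amotl2*. The overlap changed along the list, whose order is not explained in the sources used here. With the SOX11 list cut into 10 equal parts, 62.0% of peaks in the first part overlapped a SOX4 peak, and 2.02% in the last did. Of the 8 peaks of the 10 genes that stood among the first 2669 of the SOX11 list, 6 overlapped a SOX4 peak, where 55.0% of the peaks there did. Of the 37 later ones, 1 did, where 5.67% of the list did. The shared peaks had a median position of 1805.0 and the others of 12370. The SOX11 peaks of the *Tead* genes had a median position of 5263.5, those of the coactivators 14630 and those of the target genes 13370, beside 10636 for the whole list. Among the 5 genes without a SOX4 peak, the earliest SOX11 peak stood at position 3840 for *Tead4*, 7140 for *Yap1*, 12214 for *Ctgf*, 13082 for *Wwtr1* and 15488 for *Lats2*. The earliest SOX11 peaks of the 5 genes with a SOX4 peak stood at position 274 for *Tead1*, 690 for *Tead2*, 1244 for *Amotl2*, 1805 for *Cyr61* and 8618 for *Tead3*, so of these only that of *Tead3* came after any of the former group. The part of the list position in these differences was not tested.

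**Figure D2:**
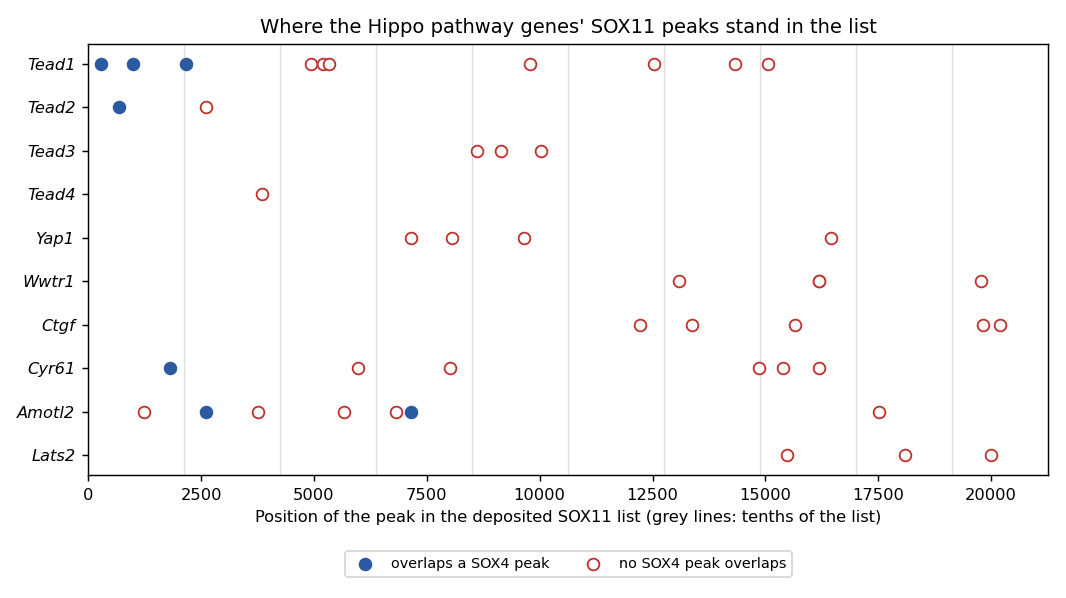
Each point is a SOX11 peak, placed by its position in the deposited SOX11 list (horizontal axis) and its gene (vertical axis), filled in blue where a SOX4 peak overlaps it. Of the 7 filled points, 6 stand among the first 2669 positions and the other, of *Amotl2*, at position 7147.

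Each of the 3 motifs had an exact match in 14 of the 45 peaks, though not in the same 14 (31.1%, interval 19.5 to 45.7%). In the whole SOX11 list 26.6% of peaks had the SOX motif, 28.5% the AP-1 motif and 17.8% the TEAD motif. In sequences of the same width 2 kb away from the 45 peaks, 3 had the SOX motif (6.67%), 2 the AP-1 motif (4.44%) and 7 the TEAD motif (15.6%), and for the whole list these shares were 10.8%, 4.59% and 9.13%. The TEAD share of the 45 peaks lay above that of the whole list, and its interval overlapped that of their shifted sequences (7.75 to 28.8%). The order depended on how the motif was written: with the longer TEAD motif and 1 mismatch allowed, 17.8% of the 45 peaks and 20.3% of the whole list had a match. Of the 30 SOX11 peaks in the genes and their 10 kb flanks, 7 had an exact TEAD match (23.3%). Of the 14 peaks with an exact TEAD match, 10 were among the 21 peaks of the target genes, 3 among the 16 of the *Tead* genes and 1 among the 8 of the coactivators. SOX matches were found in 4 peaks of the target genes, 5 of the *Tead* genes and 5 of the coactivators.

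**Figure D3:**
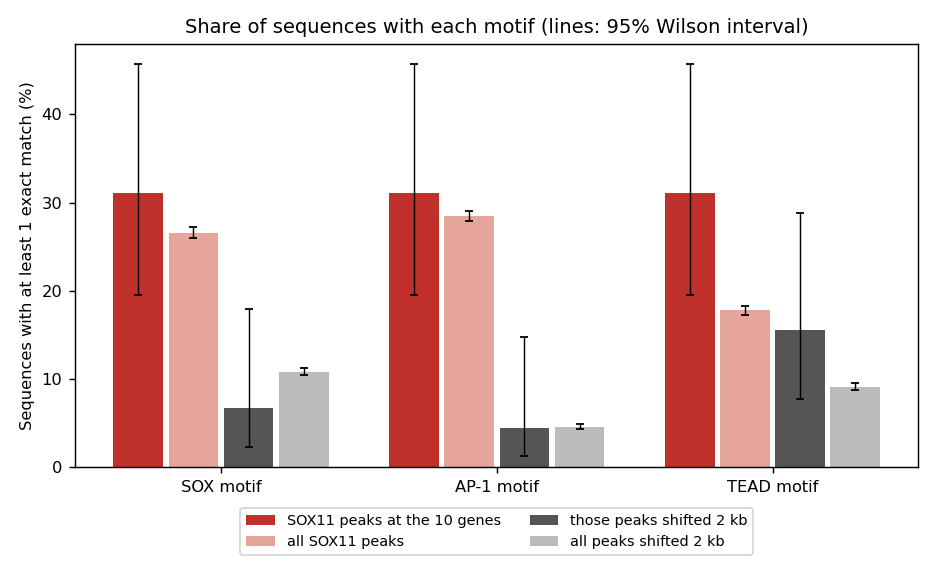
Share (%) of sequences with at least 1 exact match to each motif, for the 45 SOX11 peaks at the 10 genes, for all SOX11 peaks and for the same sequences shifted by 2 kb, with 95% Wilson intervals. The share of the 45 peaks lies above that of the whole list for each motif, by most for the TEAD motif, whose order turned with the longer motif. The intervals cover counting error over peaks, which are not replicates, and are no test of a difference.

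In the promoters, 6 of the 10 SOX11 peaks had a SOX match (60.0%, interval 31.3 to 83.2%), beside 14.2% of the promoter peaks of the whole list. These were both *Tead2* peaks and 1 peak each of *Yap1*, *Wwtr1*, *Amotl2* and *Lats2*. The *Tead2* peaks add nothing independent, since binding there was checked before sequencing. The *Yap1* peak counts as a promoter peak only through the start of a noncoding transcript. The genes were chosen with earlier results known and the peaks are not replicates, so the interval is no test of a difference from the list. Of the other promoter peaks, those at *Tead3*, at the *Rpl10a* start beside it and at the start of *Yap1* had none of the motifs, and that of *Ctgf* had the TEAD motif alone. The promoter matches depended on how the SOX motif was written. With the longer SOX motif and 1 mismatch allowed, the *Wwtr1*, *Lats2* and outermost *Tead2* promoter peaks had no match. The peaks at *Tead3* and at the *Rpl10a* start then had one. No share of the list's promoter peaks with that motif is given here. Outside promoters the order for the exact motif was the other way, with a SOX match in 8 of 35 peaks (22.9%, interval 12.1 to 39.0%), beside 30.4% in the list. AP-1 matches were found in 1 of the 10 promoter peaks and 13 of the 35 others, beside 6.27% and 35.3% in the list. Among the 7 SOX11 peaks shared with SOX4, 2 had a SOX match, 4 an AP-1 match and 2 a TEAD match. In the whole list 50.0% of shared peaks had a SOX match, 25.2% an AP-1 match and 15.9% a TEAD match. More than 1 kind of motif was found in 10 of the 45 peaks: AP-1 with TEAD in 4, SOX with AP-1 in 3 and SOX with TEAD in 3. No matches to different motifs overlapped. None of the motifs was found in 13 peaks (28.9%), beside 43.5% of the list.

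**Figure D4:**
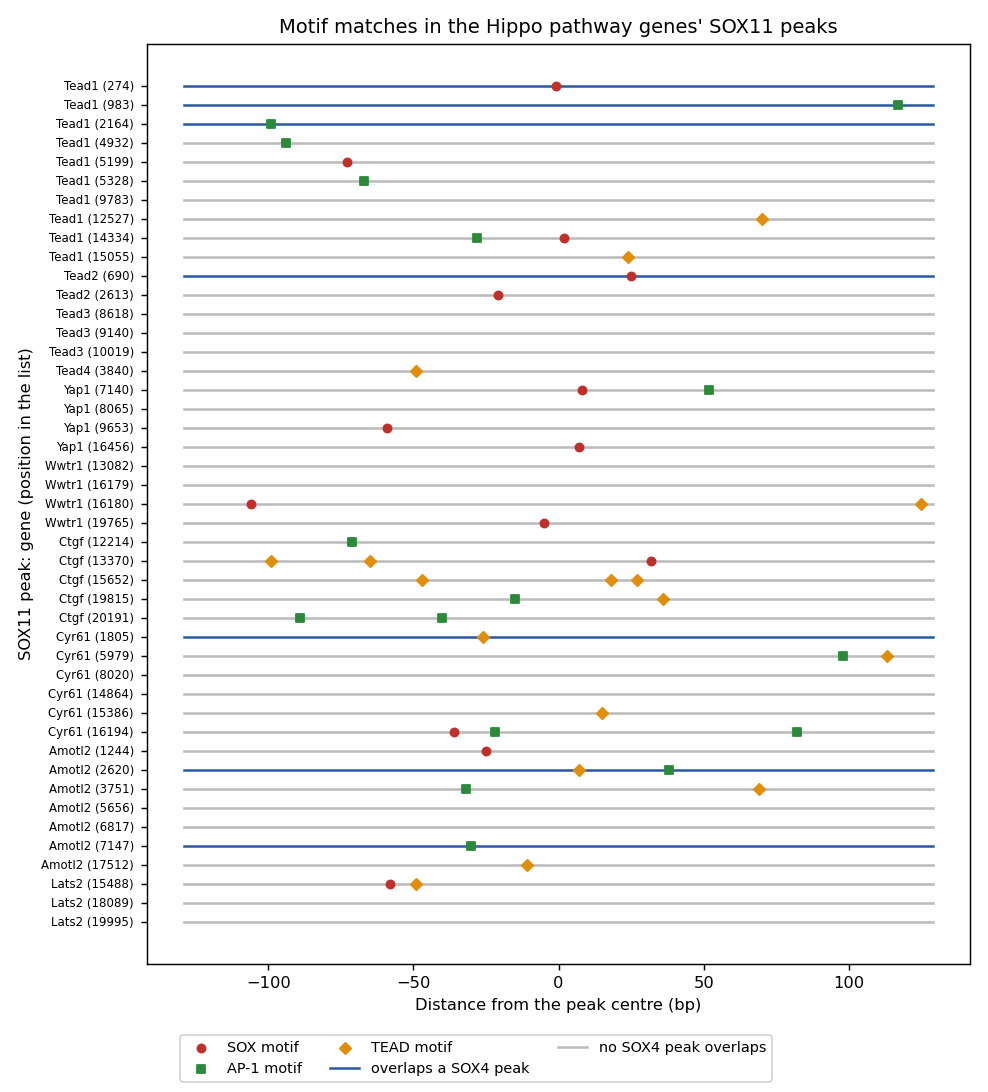
Distance in bp of each exact motif match from the centre of its SOX11 peak, 1 line per peak, with the gene and the position in the list at the left and the + strand of mm9 to the right. The line is blue where a SOX4 peak overlaps. The 3 TEAD matches of the *Ctgf* promoter peak lie within 47 bp of its centre, and 13 lines carry no mark.

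A list of 44 other genes of the pathway was read in the same way, and 38 of them had a SOX11 peak and 17 a SOX4 peak, where 57.0% and 13.0% of all protein-coding genes did. Their lengths run from 2.36 kb for *Gadd45a* to 1057 kb for *Rbms3*, and the rule gives a long gene more room for peaks. No density was computed for the 44 genes, and the part of gene length in these counts was not tested. Of the kinases and their upstream regulators, 16 of 17 had a SOX11 peak and 7 had a SOX4 peak, and the most SOX11 peaks were found at *Fat1*, an atypical cadherin gene, with 14, and *Frmd6*, with 11. *Frmd6* and *Fat1* had 3 SOX4 peaks each, all on SOX11 peaks. Those of *Frmd6*, and those of *Fat1* other than a peak in its intron, lay between genes. They were more than 10 kb upstream and were given only by the nearest start. The other genes of this group with a SOX4 peak were the kinase genes *Stk3* (MST2) and *Map4k4*, the scaffold gene *Sav1*, *Wwc1* (KIBRA) and *Rassf1*. The *Sav1* peak lay between genes, more than 10 kb upstream of *Sav1*. The *Rassf1* peak lay in an intron of *Hyal2* and was nearest to the start of that gene. In *Stk3*, *Wwc1* and *Asap1* the SOX4 peak was nearest to the start of a neighbour (*Kcns2*, *Rars* and *Fam49b*). *Lats1*, which encodes the kinase related to LATS2, had no peak of either factor.

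Of 9 genes for cofactors and partners of YAP, TAZ and TEAD, 5 had a SOX11 peak, close to the 57.0% of all protein-coding genes, and 3 had a SOX4 peak. *Vgll4*, a TEAD cofactor that competes with YAP, had 10 SOX11 and 3 SOX4 peaks, and *Amotl1* had 11 and 2, beside the 7 and 2 of its relative *Amotl2*. A SOX4 peak of *Vgll4* and a SOX4 peak of *Amotl1* lay between genes, more than 10 kb upstream. *Limd1* had 1 SOX4 peak, and *Vgll1*, *Vgll2*, *Amot* and *Wtip* had no peak of either factor. Of 18 further YAP/TAZ target genes, 17 had a SOX11 peak and 7 had a SOX4 peak. *Asap1* had 16 and *Rbms3* had 15 SOX11 peaks in genes of 294 and 1057 kb. The SOX4 peaks were given to *Rbms3* (5), *Myof* (2), *Igfbp3* (2), *Nuak2*, *Ptpn14*, *Asap1* and *Gadd45a* (1 each). Those of *Igfbp3* lay between genes and were given to it only by the nearest start. They stood much farther upstream of it than 149 kb, the largest distance from a start among the SOX11 peaks of the 10 genes. *Foxf2* had no peak. The 44 genes had a median of 2.0 SOX11 peaks, against the 4.0 of the 10 genes described above.

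**Figure D5:**
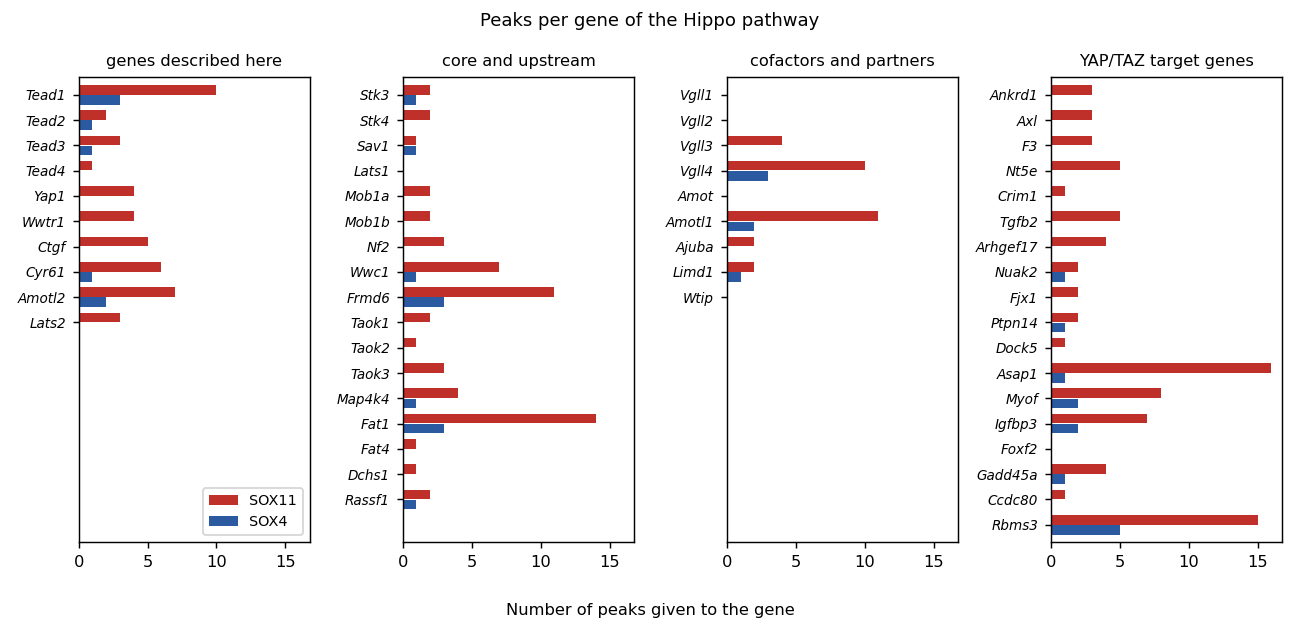
Number of SOX11 peaks (red) and SOX4 peaks (blue) at each of the 10 genes (left) and of the 44 other pathway genes in their 3 groups. Genes with 10 or more SOX11 peaks stand in every panel, and 6 of the other genes have no peak.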

How the data were processed

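ChIP-seq with an anti-FLAG antibody was analysed from the deposited peak lists of SOX11-FLAG and SOX4-FLAG, which hold only where each peak starts and ends. The authors used Bowtie2 to map single-end reads to mm9, Picard for duplicates, HOMER (factor style) for the peaks and bedtools for the subtraction of blacklisted regions. Tool versions, thresholds and the control given to HOMER are not given in the sources used here. The control library is called input in its title and IgG in its antibody field. The replicates of a factor were merged, so none could be left out and no test was run.

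Deposited starts count from 0 and are printed counted from 1. Genes and transcription starts came from GENCODE M1 on the same build, with every transcript of a protein-coding gene as a start. All 10 genes and the 44 others were found, *Ajuba* as *Jub*. Peaks overlapped when they shared at least 1 bp. The search for motifs covered both strands of mm9, read through pysam 0.24.0, in the peaks and in sequences of the same width at coordinates 2 kb higher. Distances run from the middle base of a match to the central base of the peak. Overlaps (checked against bedtools 2.31.1), nearest starts and the motif search were tested on simulated data. Python 3.11.15, numpy 2.4.6 and matplotlib 3.10.9 were used. The genes, lists and motifs were chosen with earlier results of these data known. Every peak of the 10 genes is described. Of the other pathway genes, those with a SOX4 peak, those with no peak and the 2 per group with most SOX11 peaks are named, with neighbours whose start is nearer to a peak.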

Additional observations from a re-analysis of the deposited data

How the results depend on the processing

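Of 75 alternatives over 10 results, 66 kept the value within its interval or, for a count, within 1.5 times; 4 of the 75, which used the starts of protein-coding transcripts only, were chosen after seeing the data. With the gene and its 10 kb flanks only, 5 SOX4 peaks at 3 of the 10 genes remained, since *Cyr61* and *Amotl2* had theirs by the nearest start. When the nearest start could be that of a gene of any type, the 10 genes had 37 SOX11 peaks in place of 45. They then had 7 SOX4 peaks in place of 8, at 4 genes in place of 5. The first 50% of the SOX11 list held 25 SOX11 peaks of the 10 genes. With the longer motifs and 1 mismatch, the SOX motif was in 55.6% of their SOX11 peaks (47.3% of the whole list), the AP-1 motif in 48.9% (41.1%) and the TEAD motif in 17.8% (20.3%), so the TEAD share was no longer above that of the list. The shorter SOX core of 6 bases was in 62.2% (58.5%). Within 100 bp around the centre, the AP-1 motif was in 15.6% (14.9%) and the TEAD motif in 15.6% (8.06%). No paired analysis was possible because the replicates of a factor were merged before deposit. Depth is unknown, and a missing peak does not show that a factor was absent.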

Other observations

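At the 44 other pathway genes there were 169 SOX11 peaks, of which 30 (17.8%) overlapped a SOX4 peak, beside 11.9% of the whole list. The exact SOX motif was in 30.8% of them (26.6% of the list), the AP-1 motif in 26.0% (28.5%) and the TEAD motif in 20.7% (17.8%). With the longer motifs and 1 mismatch these shares were 54.4% (47.3%), 39.6% (41.1%) and 26.6% (20.3%). Of the 82 SOX11 peaks at the 18 further target genes, 21 (25.6%) had an exact TEAD match, and of the 58 at the kinases and upstream regulators, 9 (15.5%) had one. The order turned with the longer TEAD motif, which was in 29.3% of the former and 34.5% of the latter. *Rbms3* had 8 SOX11 peaks with an exact TEAD match and *Frmd6* had 5, more than any of the 10 genes.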
